A study of Mus musculus with 6 samples.

Results

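The 9 genes described here, of 31054 genes in the deposited matrices, form an interleukin 17 programme of the mouse lung. They are the cytokine genes Il17a, Il17f and Il22, the upstream receptor genes Il23r and Il1r1, the interleukin 17 receptor subunit genes Il17ra and Il17rc, and the membrane protein genes Tmem176a and Tmem176b. They were taken by gene symbol from a list chosen by measured values, the p16-DTR and control levels in CD4 T cells of these libraries. Those differences, and the same contrast in other cells, are therefore given as values with no test.

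The study was designed to remove cells with high p16 activity from the lungs of old mice and to profile single cells afterwards. The p16-DTR group held 3 male C57BL/6 mice of the genotype p16-CreERT2/R26-LSL-DTR, and the control group held 3 male C57BL/6 mice of the genotype p16-CreERT2, all 21 months old. Every mouse of both groups carried p16-CreERT2, a tamoxifen-dependent Cre recombinase, and was given 5 days of tamoxifen, then, 2 weeks later, 5 days of diphtheria toxin, and 2 weeks to recover. R26-LSL-DTR is a receptor for the toxin held behind a removable stop, so the groups differ in the presence of that allele, and the cells it can reach are set by p16-driven Cre activity and not by cell type. For each of the 6 libraries, 20000 CD45- and 9000 CD45+ sorted cells of 1 lung were mixed, so shares of immune cells in a library follow the sort. The labels tie each library to a lung but give no animal number, so the tests measure the spread between these 6 samples.

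Depth was close across libraries. They held 13482 to 17332 barcodes and 254200305 to 344421685 unique molecular identifiers (UMIs, each counting 1 captured transcript), with medians of 16587.5 to 18149 UMIs per barcode. Libraries shared 55 to 90 barcodes in pairs, at most 0.586% of the smaller library. Cdkn2a, the p16 gene itself, stood at 1.15, 2.60 and 2.84 CPM (UMIs per 1000000 UMIs) in control replicates 1, 2 and 3 and at 7.10, 8.57 and 7.31 in p16-DTR replicates 1, 2 and 3, so it was higher in every library of the group in which p16-high cells were to be removed. A tdTomato transcript, listed among the features, had 89, 74 and 94 UMIs in the p16-DTR libraries and 0 in each control library. The genotypes given above do not name it.

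Interleukin 17A and interleukin 17F are secreted cytokines that act through a receptor built of the IL17RA and IL17RC chains, found on epithelial cells, fibroblasts, endothelial cells and myeloid cells, and they drive neutrophil-attracting chemokines and antimicrobial proteins at barrier surfaces such as the airway. T helper 17 cells, which carry CD4, and gamma-delta T cells are their best known sources, and group 3 innate lymphoid cells also make them. Interleukin 23 and interleukin 1, sensed through the receptors encoded by Il23r and Il1r1, sustain this output. Interleukin 22, made by many of the same cells, acts on epithelium. TMEM176A and TMEM176B are intracellular membrane proteins abundant in some lymphocytes and in myeloid cells.

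Il17a and Il17f are neighbours on chromosome 1 (GRCm38, GENCODE vM21 gene models), at chr1:20730905-20734496 on the plus strand and chr1:20777146-20790617 on the minus strand, 42649 bp apart. Il23r lies at chr6:67422932-67491855 on the minus strand. The 250 bases before the RefSeq transcription start of these 3 genes (GRCm38.p6, 5′ to 3′ along the gene) are printed because these are the members whose windows held a motif searched for. Capitals mark AGGTCA, a core element of nuclear receptor sites, read on either strand (TGACCT when on the opposite strand), and in Il17a also the AP-1 motif TGANTCA.
Il17a promoter, chr1:20730655-20730904, plus strand: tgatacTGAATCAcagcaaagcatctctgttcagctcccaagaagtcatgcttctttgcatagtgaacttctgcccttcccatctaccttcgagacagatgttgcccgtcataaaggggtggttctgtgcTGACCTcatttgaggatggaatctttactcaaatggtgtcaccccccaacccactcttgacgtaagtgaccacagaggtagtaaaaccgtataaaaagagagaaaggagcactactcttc
Il17f promoter, chr1:20784271-20784520, minus strand: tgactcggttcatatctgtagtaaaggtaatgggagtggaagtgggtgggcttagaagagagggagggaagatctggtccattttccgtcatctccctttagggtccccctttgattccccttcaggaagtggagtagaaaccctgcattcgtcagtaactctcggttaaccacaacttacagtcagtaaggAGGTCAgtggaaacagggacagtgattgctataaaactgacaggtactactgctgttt
Il23r promoter, chr6:67491856-67492105, minus strand: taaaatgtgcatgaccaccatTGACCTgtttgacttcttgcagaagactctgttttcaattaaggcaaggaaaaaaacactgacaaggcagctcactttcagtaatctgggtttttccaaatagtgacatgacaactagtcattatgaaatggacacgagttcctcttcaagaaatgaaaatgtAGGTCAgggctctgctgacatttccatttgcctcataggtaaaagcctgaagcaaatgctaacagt
In the Il17a window the AP-1 match began at position -244 and TGACCT at -120 from the start site. In the Il17f window AGGTCA began at -58, and the RefSeq start used for this gene lies inside the longer GENCODE model. In the Il23r window TGACCT began at -229 and AGGTCA at -66. No marked matches overlapped. Of 32851 RefSeq windows of the same length, 14.0% held AGGTCA on either strand, 6.75% held TGANTCA and 7.02% held TTCNNNGAA, a STAT motif that none of the members' windows held. Promoter entries were found for 8 of the 9 members (not Il17ra), and the windows of Il22, Il1r1, Il17rc, Tmem176a and Tmem176b held none of the 3 motifs. A match is a run of letters and not a measured binding site.

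Cells were sorted into 31 gates by the UMIs of marker genes. A CD4 T cell had at least 1 Cd3e and 1 Cd4 UMI, fewer than 2 Trdc UMIs and no marker combination of another lineage. The gate held 248, 320 and 427 cells in control replicates 1, 2 and 3 and 241, 366 and 471 cells in p16-DTR replicates 1, 2 and 3. The alpha-beta receptor gene Trac was found in 97.6% to 99.4% of them and the gamma-delta receptor gene Trdc, which the gate limits, in at most 1.09%.

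In CD4 T cells, 7 of the 9 genes were lower in every p16-DTR library than in every control library, and Il22 and Il17ra overlapped. Of all 11698 genes tested in these cells, 12.7% were lower with no overlap between the groups and 3.14% were called lower. Because the genes were listed with this contrast in view, the count is a description of them.

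Il17a and Il17f had the lowest log2 fold changes of the 9. Il17a, the signature cytokine, stood at 385, 345 and 200 CPM in control replicates 1, 2 and 3 and at 47.1, 1.15 and 4.76 in p16-DTR replicates 1, 2 and 3. Every control library was above every p16-DTR library, and p16-DTR replicate 1 was the highest of its group. The log2 fold change was -4.43 (SE 0.79, 3 against 3 libraries), and it was -6.67 when p16-DTR replicate 1 was left out and -3.80 when p16-DTR replicate 2 was.

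Il17f, whose product pairs with interleukin 17A in heterodimers, stood at 134, 134 and 126 CPM in the control libraries and at 6.44, 0.164 and 2.04 in the p16-DTR libraries. The control libraries lay close together, the p16-DTR libraries were far below them, and the value of p16-DTR replicate 2 was a single UMI. Its log2 fold change was -5.79 (SE 0.42), or -6.82 with p16-DTR replicate 1 left out and -5.19 with p16-DTR replicate 2 left out.

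Fewer cells held the transcripts, and the mean UMIs per positive cell were lower. Il17a UMIs were found in 57, 82 and 66 control CD4 T cells (23.0%, 25.6% and 15.5%) and in 11, 2 and 9 p16-DTR CD4 T cells (4.56%, 0.546% and 1.91%). A positive cell held on average 27.1, 23.4 and 22.6 Il17a UMIs in the control libraries and 16.6, 3.50 and 3.89 in the p16-DTR libraries. The groups overlapped neither in the share of cells nor in the UMIs per positive cell, and the fullest Il17a cell held 339 UMIs, in control replicate 3. The p16-DTR means rest on 11, 2 and 9 cells, and the part of background UMIs in them was not tested. For Il17f the shares were 19.8%, 24.1% and 14.5% against 4.56%, 0.273% and 1.06%, and the mean UMIs per positive cell were 11, 9.69 and 15.2 against 2.27, 1.00 and 3.00.

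Shares depend on depth, and depth in these cells was lower in the p16-DTR libraries. CD4 T cells of 1 lineage, before the Trdc limit, had median depths of 14989, 16058 and 16012 UMIs in the control libraries. In the p16-DTR libraries the medians were 14774, 14209.5 and 13470, with no overlap. Each cell was therefore also thinned to 4000 UMIs, leaving out at most 12 shallower CD4 T cells in a library. Shares of cells in other paragraphs are not thinned unless so named. Thinned shares with an Il17a UMI were 20.8% (15.9% to 26.4%, exact binomial 95% interval), 21.0% (16.6% to 25.9%) and 10.6% (7.83% to 13.9%) in the control libraries. They were 3.32% (1.44% to 6.44%), 0.274% (0.00694% to 1.52%) and 1.31% (0.481% to 2.82%) in the p16-DTR libraries. These intervals cover counting error only. Neutrophils, taken to lack Il17a, gave 0.157% to 0.389% on the same scale, so p16-DTR replicate 2 was at that background and the other libraries were above it. No Il17f UMI remained in the thinned CD4 T cells of p16-DTR replicate 2, which allows a share of up to 0.822%.

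Il22 was rare. It stood at 4.99, 23.5 and 8.60 CPM in control CD4 T cells and at 19.6, 0 and 0.680 in p16-DTR CD4 T cells, from 3, 5 and 10 cells and from 3, 0 and 2 cells. The groups overlapped, and single cells carried most of the signal, with 106 of the 131 UMIs of control replicate 2 and 74 of the 76 UMIs of p16-DTR replicate 1 in 1 cell each. The log2 fold change of -1.14 (SE 1.16) was -5.05 without p16-DTR replicate 1 and -0.26 without control replicate 2. Mice also carry Iltifb, a near-identical copy 79581 bp from Il22 on chromosome 10, and reads of the pair may have been divided between them, so the Il22 level is uncertain.

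**Figure D1:**
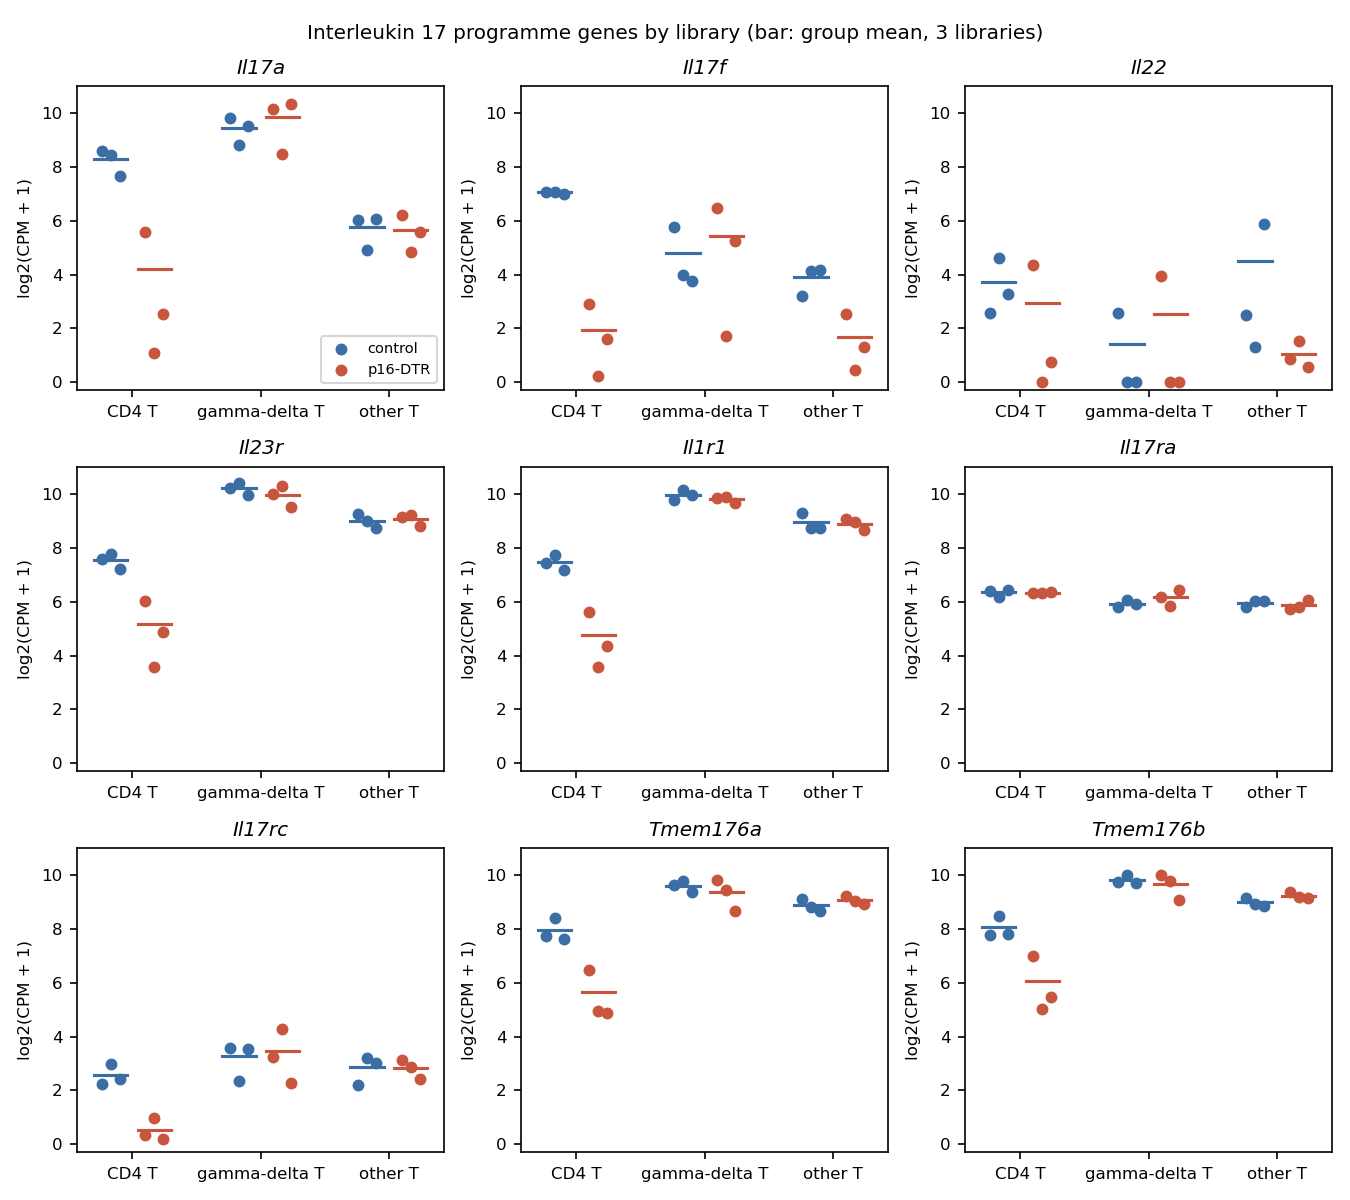
Level of each of the 9 genes as log2(CPM + 1) in CD4 T, gamma-delta T and other T cells. Each point is 1 library (3 control, 3 p16-DTR) and each bar the mean level of its group put on the same scale; in CD4 T cells the groups separate for all genes except Il22 and Il17ra, while the gamma-delta T points overlap for every gene.

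The receptors that feed the programme were lower as well. Il23r, which encodes the subunit that makes cells responsive to interleukin 23, stood at 189, 215 and 149 CPM in control CD4 T cells and at 64.1, 11 and 28.7 in p16-DTR CD4 T cells. No library of the groups overlapped, and p16-DTR replicate 1 was again the highest of its group. The log2 fold change was -2.53 (SE 0.45), and -3.23 without p16-DTR replicate 1. Here the difference lay in the number of cells: 36.7%, 41.9% and 28.1% of control cells and 11.6%, 2.46% and 5.52% of p16-DTR cells held an Il23r UMI, while a positive cell held 8.32, 8.91 and 9.24 UMIs against 8.89, 7.44 and 8.12, ranges that overlap.

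Il1r1, the signalling receptor for interleukin 1, stood at 174, 211 and 142 CPM in control CD4 T cells and at 48.4, 11 and 19.5 in p16-DTR CD4 T cells. The groups did not overlap, and the log2 fold change was -2.87 (SE 0.40), or -3.55 without p16-DTR replicate 1. Il1r1 UMIs were found in 33.5%, 42.5% and 29.7% of control cells and 12.0%, 3.83% and 6.37% of p16-DTR cells. Unlike Il23r, its UMIs per positive cell did not overlap either, at 8.39, 8.62 and 8.33 against 6.48, 4.79 and 4.77.

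The subunits of the interleukin 17 receptor went separate ways. Il17ra, the chain shared by several receptors of the family, stood at 84.3, 70.6 and 86.2 CPM in control CD4 T cells and at 78.3, 79.0 and 82.0 in p16-DTR CD4 T cells. The p16-DTR values lay inside the control range, and the log2 fold change was -0.05 (SE 0.09). Il17rc, the partner chain that binds interleukin 17A and 17F, was scarce at 3.74, 6.83 and 4.44 against 0.258, 0.985 and 0.136 CPM. These are 15, 38 and 33 UMIs against 1, 6 and 1, so the groups did not overlap but the log2 fold change of -3.42 (SE 0.58) rests on very few p16-DTR UMIs. It was -4.67 without p16-DTR replicate 2.

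Tmem176a stood at 212, 333 and 197 CPM in control CD4 T cells and at 87.8, 30.2 and 28.6 in p16-DTR CD4 T cells. Tmem176b stood at 216, 356 and 224 against 125, 31.5 and 43.5. For both, all control libraries were above all p16-DTR libraries, with control replicate 2 and p16-DTR replicate 1 the highest of their groups. The log2 fold changes were -2.44 (SE 0.41) and -2.08 (SE 0.45), and -3.12 and -2.86 without p16-DTR replicate 1. The 2 genes overlap by 578 bp on opposite strands of chromosome 6 (chr6:48840919-48847071 and chr6:48833818-48841496). The shared stretch lies at the 5′ end of both genes, while the libraries were made with a 3′ kit. The sources used here do not state whether counting used strand, so any reads from the shared stretch may count for either. How many reads fell there was not tested.

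How the gate treats mixed barcodes mattered for size. The plain gate of at least 1 Cd3e and 1 Cd4 UMI also takes barcodes that pass markers of another lineage, 67, 48 and 89 in the control libraries and 59, 75 and 92 in the p16-DTR libraries, with median depths of 35064 to 45846 UMIs. Myeloid marker genes in those barcodes summed to 5730.9 to 10009.7 CPM, against 152 to 243 in the rest. With them included, Il17a stood at 282, 261 and 140 against 51.9, 2.16 and 21.0 CPM and Il17f at 90.1, 104 and 82.4 against 6.35, 0.206 and 1.78, so the groups still did not overlap. Tmem176a, which myeloid cells also express, stood at 245, 282 and 212 against 145, 83.8 and 89.4, and its log2 fold change was -1.26 in place of -2.44. Il17rc moved to -1.21 and Tmem176b to -1.04.

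The members were found in the same cells. In the 3 control libraries together, 250 CD4 T cells held an Il17a or Il17f UMI and 745 did not, at median depths of 16466 and 15505 UMIs. Il23r UMIs were found in 90.8% of the former (89.3% to 92.1% by library) and 15.8% of the latter (13.1% to 18.7%). For Il1r1 the shares were 89.2% and 16.5%, for Tmem176a 96.8% and 32.6%, and for Tmem176b 97.6% and 35.3%. Il17rc followed at a lower level, with 16.8% and 3.62%. Il17ra did not follow, with 60.4% (55.4% to 63.1%) and 65.2% (63.5% to 66.1%). In each control library the cytokine-positive cells had the higher share for every member except Il17ra, leaving aside Il17a and Il17f, which define these cells. These are shares of cells and carry no test, since cells of 1 library are not replicates.

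**Figure D2:**
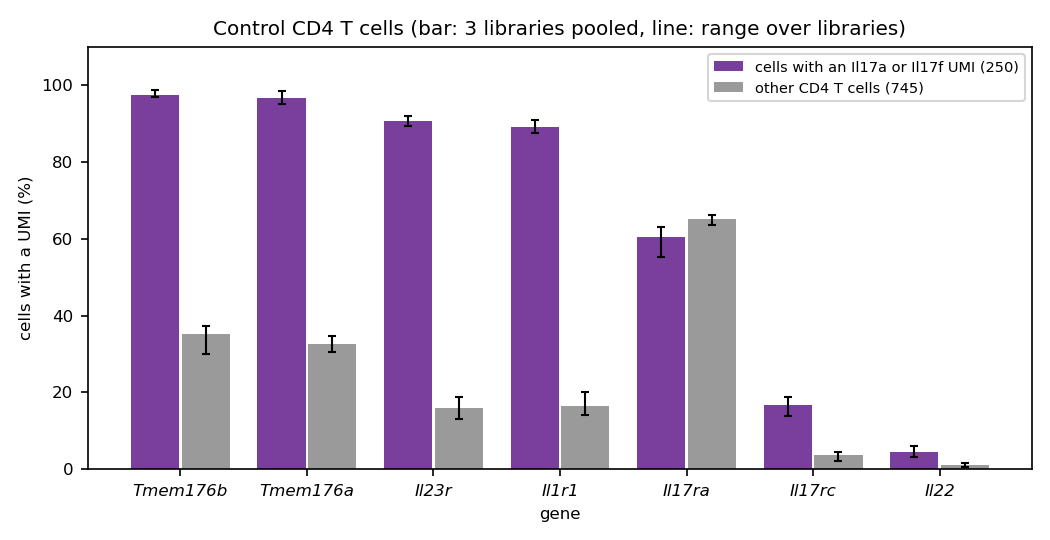
Share of control CD4 T cells (%) with a UMI of each member, for 250 cells with an Il17a or Il17f UMI and 745 without. Bars pool the 3 control libraries and lines span the lowest and highest library; Tmem176b, Tmem176a, Il23r and Il1r1 are in 89.2% to 97.6% of the cytokine-positive cells, while Il17ra differs little between the cell sets.

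Cells with either cytokine numbered 65, 101 and 84 in the control libraries, which is 26.2%, 31.6% and 19.7% of the CD4 T gate, and 17, 3 and 12 in the p16-DTR libraries, which is 7.05%, 0.820% and 2.55%. Both cytokines were detected together in 41, 58 and 44 control cells and in 5, 0 and 2 p16-DTR cells. Cells with both Il23r and Il1r1 made up 28.2%, 36.9% and 24.6% of the control gate and 9.54%, 1.37% and 2.12% of the p16-DTR gate. The groups did not overlap in any of these counts. Of the cells with Il23r, 64.8%, 69.4% and 62.5% also held a cytokine UMI in the control libraries, against 46.4%, 11.1% and 11.5% in the p16-DTR libraries, where they numbered 28, 9 and 26.

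The p16-DTR cytokine-positive cells were few. Of those 32 CD4 T cells, 53.1% held Il23r, 56.2% Il1r1, 71.9% Tmem176b and 0 held Il17rc, and 17 of them came from p16-DTR replicate 1. By library the shares with Il23r were 76.5%, 33.3% and 25.0%, and those with Il1r1 70.6%, 0% and 50.0%, of 17, 3 and 12 cells. With p16-DTR replicate 1 left out, a choice made after the data had been seen, 15 cells remained, of which 26.7% held Il23r, 40.0% Il1r1 and 53.3% Tmem176b. Among the other 1046 p16-DTR cells the shares with Il23r, Il1r1 and Tmem176b were 4.40%, 5.26% and 22.1%. In each p16-DTR library the Il23r share of cells without a cytokine UMI (2.20% to 6.70%) lay below that of the control libraries (13.1% to 18.7%).

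Lineage genes set the control cytokine-positive cells apart from the other control CD4 T cells. Trac was found in 98.5%, 100% and 100% of them, and Trdc in none, but cells with 2 or more Trdc UMIs had already been left out by the gate. Tcrg-C1, a constant segment of the gamma receptor chain, was found in 26.2%, 57.4% and 56.0%, against 1.64%, 10.5% and 8.16% of the other cells. Ccr6, a chemokine receptor of T helper 17 cells, was found in 64.6%, 81.2% and 77.4% against 14.8%, 21.9% and 17.2%. Il17re, encoding a further chain of the receptor family, whose gene lies 668 bp from Il17rc, was found in 69.2%, 79.2% and 79.8% against 10.4%, 14.6% and 11.1%. Genes of other T helper states were rarer in them: Tbx21, the type 1 master regulator, was found in 1.54%, 4.95% and 3.57% against 30.1%, 25.6% and 26.5%, and Foxp3, that of regulatory T cells, in 3.08%, 0.990% and 1.19% against 14.2%, 11.4% and 13.4%.

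Beyond the members, the genes most like the cytokines in control CD4 T cells were ranked by the ratio of the share of cells with a UMI among the 250 cytokine-positive cells to that among the 745 others. The first 8 genes present in at least 20% of the positive cells were Ccr1, Lingo4, Tmeff2, Ppp1r14c, Ermn, Zcchc14, 5830411N06Rik and Lrrn2. Ccr1, a chemokine receptor, led with 27.6% against 2.28%, a ratio of 12.1, and Lrrn2 closed the list with 32.8% against 4.30%, a ratio of 7.64. Tmeff2 was the most widespread, in 44.6%, 58.4% and 65.5% of positive cells by library against 3.28%, 8.22% and 5.25%. Since these genes were picked in the control libraries of the contrast, the levels of those named here are given with no test. Tmeff2 stood at 36.4, 110 and 76.6 TMM-normalised CPM in control CD4 T cells and 3.89, 0.484 and 0.669 in p16-DTR CD4 T cells, and Ermn at 28.0, 32.6 and 23.1 against 1.56, 0 and 1.60. All 8 were lower with no overlap, beside 12.7% of all 11698 genes. Their choice in control cells favours this, so the count is a description of them.

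Gamma-delta T cells, gated by at least 2 Trdc and 1 Cd3e UMIs, were the strongest Il17a source per RNA. The gate held 65, 75 and 102 cells in the control libraries and 83, 83 and 150 in the p16-DTR libraries. Il17a stood at 898, 444 and 740 CPM in the control libraries and at 1134, 357 and 1284 in the p16-DTR libraries. The p16-DTR libraries held both the highest values and the lowest one, so the groups overlapped. The log2 fold change was 0.44 (SE 0.43). Il17a UMIs were found in 55.4%, 42.7% and 44.1% of control cells and 56.6%, 26.5% and 44.0% of p16-DTR cells.

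The other members overlapped between the groups in gamma-delta T cells too. All 8 members tested there overlapped (Il22 was too low for the fit), beside 5.81% of genes lower and 5.4% higher with no overlap among the 8951 tested. Il17f stood at 54.1, 15 and 12.4 against 87.9, 2.28 and 37.1 CPM, a wide spread within both groups. Il23r stood at 1200, 1343 and 994 against 1025, 1247 and 731, and Il1r1 at 870, 1139 and 993 against 918, 936 and 819. Their log2 fold changes were -0.23 (SE 0.19) and -0.16 (SE 0.14). Tmem176b stood at 844, 1011 and 826 against 1025, 874 and 531, with a log2 fold change of -0.14 (SE 0.21). P16-DTR replicate 3 was the lowest for Il23r, Il1r1 and Tmem176b, and its gate also differed in makeup: Cd8a was found in 32.7% of its cells against 1.33% to 9.64% in the other libraries, and Rora in 78.0% against 95.4% to 100%. Trac was found in 43.1% to 68.7% of the cells of this gate. The part of these differences in the member levels was not tested.

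In gamma-delta T cells the pairing of the cytokines was different from that in CD4 T cells. Of 115 control cells with either cytokine, 98.3% held Il17a and 22.6% held Il17f, where 82.0% and 75.2% of the 250 positive control CD4 T cells did. Il23r was found in 97.4% of these 115 cells and in 69.3% of the other 127, and Il1r1 in 100% and 69.3%. Most control gamma-delta T cells thus held each receptor whether or not a cytokine was detected. Among the 176 p16-DTR cells without a cytokine UMI, 50.0% held Il23r (20.7% to 84.8% by library) and 50.6% held Il1r1 (24.4% to 84.8%).

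The origin of Il17a transcripts within a library followed from these levels. CD4 T cells gave 49.6%, 70.9% and 44.1% of the Il17a UMIs of the control libraries and 8.30%, 1.04% and 0.784% of those of the p16-DTR libraries. Gamma-delta T cells gave 28.8%, 19.7% and 38.9% against 67.3%, 69.5% and 75.9%. Barcodes that passed more than 1 lineage gave 14.0%, 6.32% and 9.03% against 11.5%, 5.33% and 17.8%. The total was 3112, 2707 and 3379 Il17a UMIs in the control libraries and 2206, 675 and 4466 in the p16-DTR libraries, so it overlapped between groups and was highest in p16-DTR replicate 3. Because lymphocytes were mixed in after a sort, these are shares of a library and not of a lung.

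T cells with neither Cd4 nor Cd8a UMIs formed a further source. This gate held 201, 133 and 222 cells in the control libraries and 258, 398 and 311 in the p16-DTR libraries, and 59.5% to 83.7% of its cells held Zbtb16, the regulator of innate-like T cells. Il23r stood at 609, 509 and 424 against 558, 587 and 446 CPM, and Il17a at 63.8, 29.4 and 66.6 against 72.8, 27.9 and 46.8, with overlap. Il17f did not overlap, at 8.27, 16.6 and 17 against 4.74, 0.372 and 1.46, but all 34 UMIs of control replicate 2 were in 1 cell and p16-DTR replicate 2 had 2 UMIs in all. It was the only member of the 8 fitted in this gate to separate the groups, where 7.33% of genes were lower with no overlap. Il22 stood at 4.63, 1.47 and 58.2 against 0.837, 1.86 and 0.485, and 182 of the 195 UMIs of control replicate 3 were in 1 cell.

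Innate lymphoid cells, gated without CD3 genes by Il7r with a lineage regulator such as Gata3, were few, with 12 to 28 cells per library. Gata3, which the gate itself used, was found in 78.6% to 93.8% of them, and Il1rl1, a receptor of group 2 cells that it did not use, in 62.5% to 68.8%. No Il17a UMI was found in it, where 3 UMIs would have been 8.29 to 20.8 CPM. Il17f (29 UMIs) and Il22 (8 UMIs) were each found in 1 cell of p16-DTR replicate 1, and control replicate 2 had 1 more Il17f UMI. Il23r stood at 270, 250 and 125 CPM in the control libraries and at 268, 87.3 and 27.6 in the p16-DTR libraries, from 1 to 7 cells each, and the groups overlapped.

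Across the 27 categories of cells with at least 30 cells in every library, the members divided into 2 kinds. The cytokines and Il23r were held by T cells. Il17a averaged 809 ± 369 CPM in gamma-delta T cells (SD, n = 6 libraries), 164 ± 172 in CD4 T cells and 51.2 ± 19.5 in other T cells, and then 0.368 ± 0.203 in neutrophils, leaving aside barcodes of more than 1 lineage. These averages pool both groups, and the order differed between them. In the control libraries alone the 3 T cell ranges were 444 to 898, 200 to 385 and 29.4 to 66.6 CPM, with no overlap, while in the p16-DTR libraries CD4 T cells (1.15 to 47.1) overlapped other T cells (27.9 to 72.8) and had the lower mean. Il17f averaged 67.1 ± 70.4 in CD4 T cells, 34.8 ± 32.1 in gamma-delta T cells and 8.07 ± 7.30 in other T cells. In the control libraries CD4 T cells led for Il17f, at 126 to 134 CPM against 12.4 to 54.1 in gamma-delta T cells, and in the p16-DTR libraries gamma-delta T cells had the higher mean, 42.4 ± 43.1 against 2.88 ± 3.22 (SD, n = 3), with overlap. Il23r averaged 1090 ± 221 in gamma-delta T cells, 522 ± 75.7 in other T cells and 109 ± 86.4 in CD4 T cells, and the ranges of these 3 did not overlap. Il22 averaged 11.2 ± 23.0 in other T cells, 9.56 ± 9.87 in CD4 T cells and 3.25 ± 5.86 in gamma-delta T cells, an order that overlaps throughout and also pools both groups.

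The remaining members were also held by cells that receive these signals. Il1r1 was highest in gamma-delta T cells (946 ± 112) and other T cells (485 ± 83.3), followed by adventitial fibroblasts at 401 ± 25.5, peribronchial fibroblasts at 293 ± 13.2 and alveolar fibroblasts at 194 ± 14.3. Other T cells and adventitial fibroblasts overlapped, and each fibroblast type was separate from the next. In these fibroblasts the p16-DTR and control libraries overlapped, for instance 392 to 433 against 360 to 402 in adventitial fibroblasts. These averages also pool both groups, whose means for the cell types named here were in the same order. CD4 T cells are left out of that order, since their groups lay far apart (176 ± 34.5 in control and 26.3 ± 19.6 in p16-DTR libraries, SD, n = 3).

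The receptor chains for interleukin 17 peaked in different cells. Il17ra was highest in nonclassical monocytes at 290 ± 9.78, then in classical monocytes at 199 ± 7.85 and neutrophils at 194 ± 19.5, of which the last 2 overlapped and changed places between the groups. It ranged from 159 to 192 in control and from 204 to 214 in p16-DTR neutrophils, with no overlap, beside 6.21% of genes that were higher with no overlap there. Il17rc was highest in ciliated cells at 32.0 ± 3.39, followed by pericytes at 21.2 ± 3.86, alveolar type 1 cells at 20.8 ± 4.02 and smooth muscle at 18.4 ± 1.92, with overlap at each step. General capillary cells held little Il17ra, at 1.12 to 1.37 in control and 0.692 to 0.999 in p16-DTR libraries, also without overlap, where 14.6% of genes were lower in that way. Il17f was as low there, at 0.729, 0.940 and 0.912 in control and 0.436, 0.406 and 0.346 TMM-normalised CPM in p16-DTR libraries, again without overlap. The part of background UMIs in these low levels was not tested.

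The Tmem176 genes were spread most widely. Averaged over the 6 libraries, Tmem176a was highest in gamma-delta T cells (719 ± 180), alveolar fibroblasts (634 ± 88.5), peribronchial fibroblasts (574 ± 78.3) and interstitial macrophages (570 ± 110), with overlap at each step, and Tmem176b in interstitial macrophages (872 ± 132), gamma-delta T cells (852 ± 178) and alveolar fibroblasts (774 ± 108). These averages pool both groups, and the order was not the same within each: interstitial macrophages averaged 650 ± 64.0 for Tmem176a in control and 490 ± 85.0 in p16-DTR libraries (SD, n = 3), and alveolar fibroblasts had the highest mean of both genes in the p16-DTR libraries, 684 ± 90.4 and 825 ± 131. Outside T cells the direction of the group difference was not shared. In aerocytes, the large capillary cells of the alveolus, Tmem176a was 349 to 372 in control and 421 to 468 in p16-DTR libraries and Tmem176b 292 to 319 and 375 to 439, higher in the p16-DTR group with no overlap, beside 11.2% of genes. In interstitial macrophages Tmem176a was 591 to 718 in control and 407 to 577 in p16-DTR libraries, lower with no overlap, beside 6.38% of genes.

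**Figure D3:**
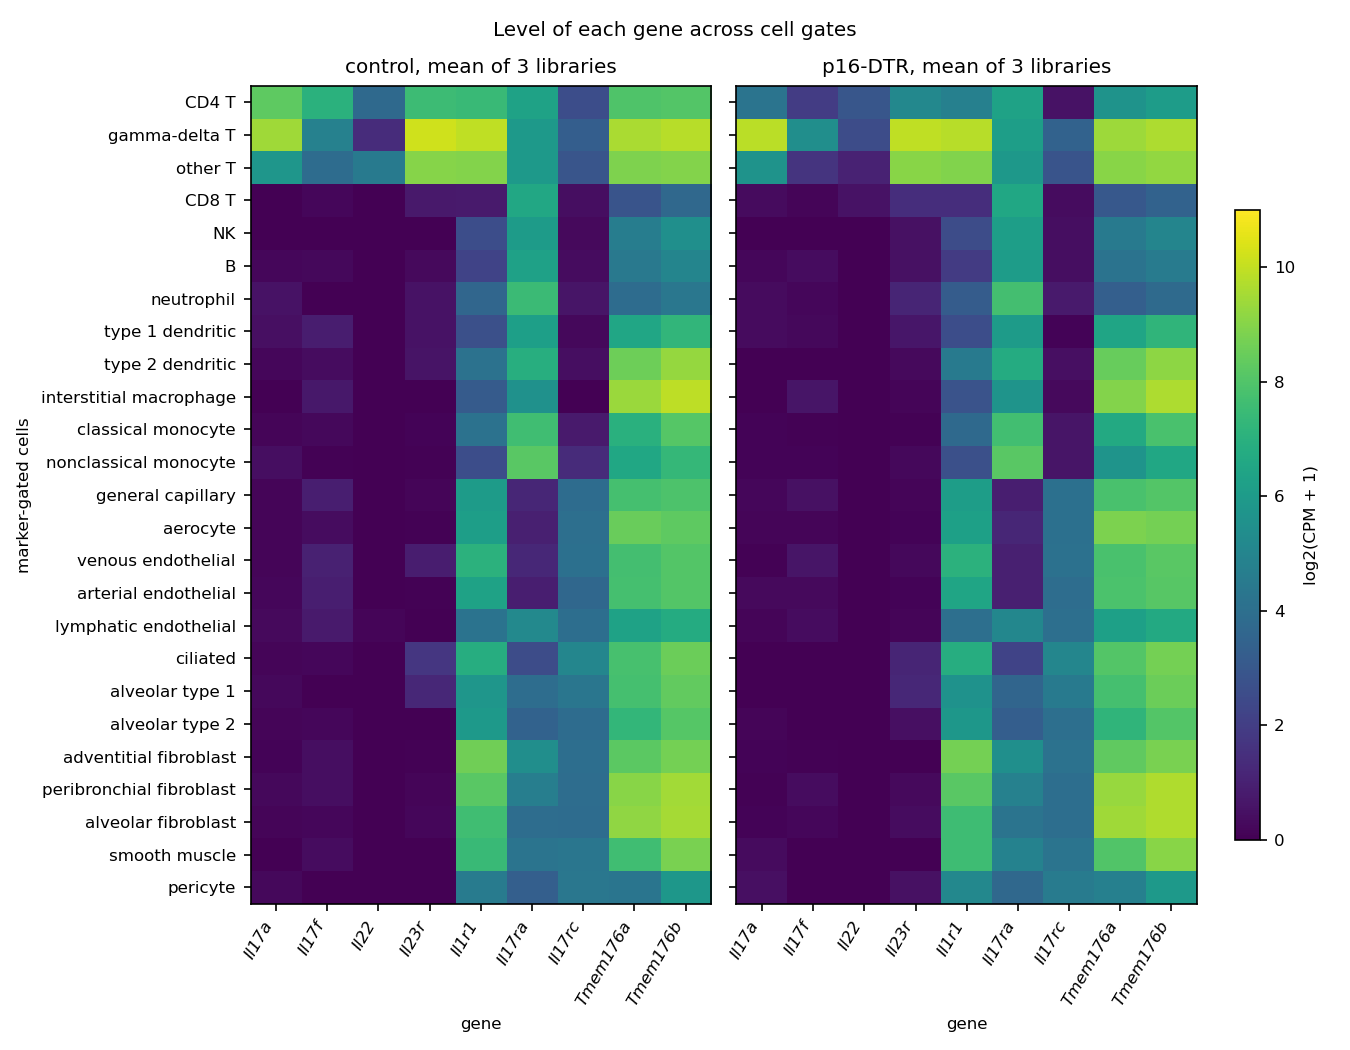
Level of each member as log2(CPM + 1), mean of 3 libraries, in 25 marker-gated cell types (rows) of control (left) and p16-DTR (right) lungs. Il17a, Il17f and Il23r are bright in T cell rows alone, where the CD4 T row is darker on the right, while Il1r1, Il17ra, Il17rc and the Tmem176 genes are also seen in fibroblast, monocyte, epithelial and endothelial rows.

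Other genes of the T helper 17 programme, which are not members, were tested in the fit over all 11698 genes of CD4 T cells. Of the 26 listed, 24 were tested, 11 fell and none rose (edgeR quasi-likelihood test, Benjamini-Hochberg adjusted p under 0.05), beside 4.9% of all genes called in either direction. Their median log2 fold change was -0.74 against 0.003 over all genes. When barcodes of more than 1 lineage were kept, none of the list was called and the adjusted p-values of the 11 were 0.0639 to 0.530. Without control replicate 1 there were 6 calls, and without control replicate 2 there were 7. The list was drawn up with results of these data in view.

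Cd163l1, a scavenger receptor of innate-like T cells, stood at 5.60, 16.9 and 11.3 TMM-normalised CPM in control CD4 T cells and 1.82, 0.484 and 0.134 in p16-DTR CD4 T cells, a log2 fold change of -4.07 (SE 0.67, edgeR adjusted p 0.0114). Aqp3, a glycerol channel, stood at 24.7, 24.5 and 19.4 against 8.30, 2.26 and 4.81, a log2 fold change of -2.23 (SE 0.34, edgeR adjusted p 0.00903). The groups overlapped for neither. Ltb4r1, a leukotriene B4 receptor, fell by 1.74 on the log2 scale (edgeR adjusted p 0.0267), Ramp1, a neuropeptide receptor component, fell by 1.63 (edgeR adjusted p 0.0165) and Serpinb1a, a protease inhibitor, fell by 1.52 (edgeR adjusted p 0.0361). Ltb4r1 and Serpinb1a each passed in 2 of the 6 fits without a library and Ramp1 in 4 (not without p16-DTR replicates 2 or 3), and Cd163l1 lost its call without p16-DTR replicate 2 (edgeR adjusted p 0.0537). A further 5 that fell were Irf4, Il18r1, Cxcr6, Icos and Rora, by 0.58 to 0.97. Of these, Il18r1 passed in 2 of the 6 fits without a library (edgeR adjusted p up to 0.110), and Icos lost its call without control replicate 1 (0.0570). Ccr6 (log2 fold change -2.11, edgeR adjusted p 0.0553) did not pass. The transcription factor genes Stat3 at 0.00, Ahr at -0.19, Maf at 0.25 and Batf at 0.23 did not pass either. Irf4 and Rora, named above among those that fell, are also transcription factor genes.

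Markers of other cells in the CD4 T gate stood as follows, and their part in these results was not tested. Myeloid markers (9 genes) summed to 153 to 186 CPM in control and 199 to 242 in p16-DTR libraries, NK markers (3 genes) to 3.05 to 12.4 and 9.27 to 32.8, B markers (4 genes) to 4.49 to 6.59 and 3.35 to 15.9, and epithelial markers (3 genes) to 65.1 to 114 and 89.2 to 107. Fibroblast markers (3 genes) summed to 8.80 to 106 and 9.25 to 40.4. Mrc1 was at 0 in control replicate 2 and p16-DTR replicate 1, and Ncr1 was at 0 in control replicates 2 and 3. Endothelial markers (3 genes) summed to 324 to 361 in control and 206 to 241 in p16-DTR libraries, almost all of it Pecam1, and dissociation-response genes (5 genes) to 727 to 823 and 505 to 591. The myeloid, endothelial and dissociation sums did not overlap between the groups, the myeloid sum being higher and the others lower in the p16-DTR libraries.

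In gamma-delta T cells, 25 of these genes were tested and none passed (3 had an unadjusted p under 0.05 by edgeR, and DESeq2 called 2 genes of the whole table), with a median log2 fold change of -0.06 against 0.006 over all genes. None of the 8951 genes (0%) passed edgeR there, and 515 had an unadjusted p under 0.05. The difference between the group effects of the 2 cell types was tested in a model over both, added after the data had been seen, which called 16 of 11344 genes (0.141%). Cd163l1, which stood at 1920, 2300 and 1840 against 2370, 1520 and 1100 TMM-normalised CPM in gamma-delta T cells, had a difference of -3.65 on the log2 scale (SE 0.50, edgeR adjusted p 0.0495). Ramp1 (-1.21, edgeR adjusted p 0.0514) did not pass.

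Of 23 listed genes of signalling and upstream control, 14 were tested in CD4 T cells, 2 fell and none rose, beside 3.14% of all genes called lower. This list too was drawn up with results of these data in view. Il17re stood at 38.2, 54.0 and 38.0 against 13.5, 2.26 and 2.41 TMM-normalised CPM, a log2 fold change of -3.06 (SE 0.52, edgeR adjusted p 0.0135). This call was lost with barcodes of more than 1 lineage kept (edgeR adjusted p 0.0908) and without p16-DTR replicate 3 (0.0503). Tgfb1, a cytokine that with interleukin 6 starts T helper 17 differentiation, fell by 0.60 on the log2 scale (SE 0.09, edgeR adjusted p 0.00748), from 141, 177 and 161 to 103, 108 and 105.

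Genes that interleukin 17 is known to induce were read in the structural cells of the same libraries. Of 30 listed, 7 to 21 could be tested in each endothelial, epithelial, fibroblast or mural gate, and 9 calls were made over all gates, 7 lower and 2 higher. The response list was also drawn up with results of these data in view. In venous endothelial cells, 3.76% of 13197 genes were called. There Cxcl1, a neutrophil attractant, stood at 5.68, 1.27 and 1.33 against 0.234, 0.261 and 0.172, a log2 fold change of -3.51 (SE 0.78, edgeR adjusted p 0.0469). These Cxcl1 levels are very low in the p16-DTR libraries, and control replicate 1 was far above the rest of its group. Ptgs2, the inducible prostaglandin synthase, stood at 224, 115 and 110 against 48.7, 67.3 and 36.2, a log2 fold change of -1.55 (SE 0.31, edgeR adjusted p 0.0354). Nfkbiz fell by 0.82, Tnfaip3 by 0.74 and Zc3h12a by 0.66 on the log2 scale, and Cxcl2, another neutrophil attractant, rose by 0.95. In peribronchial fibroblasts, where 0.359% of genes were called, Cxcl1 stood at 206, 210 and 147 against 67.6, 38.5 and 44.8, a log2 fold change of -1.90 (SE 0.21, edgeR adjusted p 0.0221). In general capillary cells, where 1.4% were called, Cxcl2 rose by 1.17 and Nfkbiz fell by 0.72 (edgeR adjusted p 0.0427 and 0.0475). Cxcl2 was low there, at 4.09, 2.45 and 3.41 against 7.88, 8.15 and 6.34 TMM-normalised CPM. Classical monocytes held 398, 355 and 328 against 531, 664 and 504 on the same scale, and nonclassical monocytes 180, 179 and 87.9 against 356, 470 and 369. Egr1, the only dissociation-response gene called in general capillary cells, fell by 1.39 (edgeR adjusted p 0.0406). The part of either in these calls was not tested.

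The response calls were not stable to single libraries. Leaving out 1 library at a time, there were 2, 5 and 0 calls with p16-DTR replicates 1, 2 and 3 left out in turn, and 3, 11 and 3 with control replicates 1, 2 and 3 left out. With barcodes of more than 1 lineage kept, 4 calls were left, and lost were Cxcl1 (edgeR adjusted p 0.145), Cxcl2 (0.0545) and Zc3h12a (0.0525) in venous endothelial and Cxcl2 (0.0563) and Nfkbiz (0.0607) in general capillary cells. These genes answer to other signals as well, and their link to the members was not tested.

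**Figure D4:**
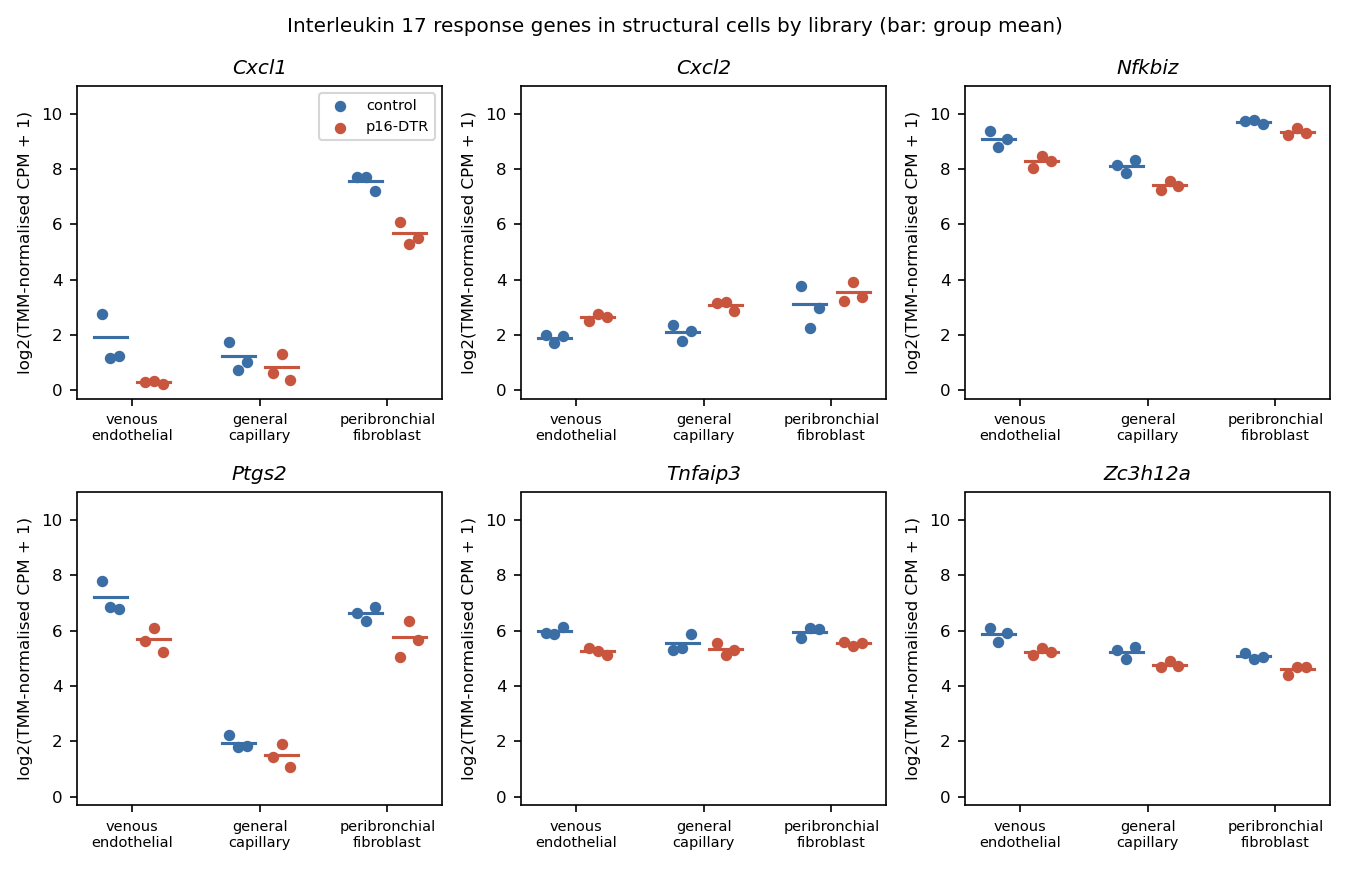
Level of 6 interleukin 17 response genes as log2(TMM-normalised CPM + 1) in venous endothelial cells, general capillary cells and peribronchial fibroblasts, 1 point per library with a bar at the group mean. Cxcl1 and Ptgs2 lie lower in the p16-DTR points of venous endothelial cells and Cxcl1 in those of peribronchial fibroblasts, while Cxcl2 lies higher in both endothelial types.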

How the data were processed

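Single-cell libraries were made with the 10x Genomics GEM-X 3′ kit, per the labels' protocols. Whole-number UMI counts per gene and barcode were deposited by the authors, made with Cell Ranger 8.0.1 on mm10, per the submitters' processing notes. Those counts had not been normalised, and use of strand is not given in the sources used here.

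Barcodes with at least 500 UMIs, 300 genes and at most 15% mitochondrial UMIs were kept, 13025 to 16884 per library. Each was gated by raw UMIs of marker genes. No doublet caller was run, and 743 to 1236 barcodes per library that passed markers of more than 1 lineage were left out of the gates. Counts were summed per library and gate. Gates with at least 30 cells in all 6 libraries were fitted with edgeR 4.0.16 in R 4.3.3 (filterByExpr, TMM, quasi-likelihood test, Benjamini-Hochberg adjustment over all genes of the gate), 3 against 3 libraries, and a call is an adjusted p under 0.05. An SE is the absolute log2 fold change divided by the square root of the quasi-likelihood F statistic, and not a plain spread between libraries. For members it is part of the description and is not to be read as a test. The steps were tested on simulated data. Levels of the members and sums of marker genes are CPM, counts per 1000000 UMIs of a gate, unless named as TMM-normalised. Levels of other named genes within a gate are TMM-normalised CPM, also where not so named. Cells were thinned with Python 3.11.15 and numpy 2.4.6, and exact binomial intervals came from scipy 1.17.1. An upper limit for a count of 0 is 3 counts of the total.

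Alternatives were DESeq2 1.42.0, RLE or library size scaling, no low-count filter, stricter cells, stricter gates, barcodes of more than 1 lineage kept, the replicate number as a block, another thinning depth, and leaving out each library. The members and all lists were chosen with earlier results of these data known. Named genes are all members, up to 6 called genes of each list by size of change, and the 8 genes most like the cytokines. A few others are named from their lists after their values were seen. Lists covered the type 17 programme, signalling and upstream genes, interleukin 17 response, type 1, type 2, regulatory and naive T cell genes, markers of myeloid, B, NK, endothelial, epithelial and fibroblast cells, and dissociation. Values of some listed genes are not reported here.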

Additional observations from a re-analysis of the deposited data

Results flagged for a closer look

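Cd163l1 differed between cell types in its group effect, by a test of the difference itself that was added after the data had been seen. Its log2 fold change was -4.07 in CD4 T cells and -0.28 in gamma-delta T cells, and the difference fitted in a model over both was -3.65 (SE 0.50, edgeR adjusted p 0.0495). It was lower in all 3 p16-DTR libraries than in all 3 control libraries of CD4 T cells, and the libraries overlapped in gamma-delta T cells. Its CD4 T level was at most 16.9 TMM-normalised CPM, and 1.82, 0.484 and 0.134 in the p16-DTR libraries. In gamma-delta T cells its mean was far higher, at 2020 in the control and 1660 in the p16-DTR libraries. Its call in CD4 T cells was lost with barcodes of more than 1 lineage kept (edgeR adjusted p 0.102) and without p16-DTR replicate 2 (0.0537). The difference was not refitted under the alternatives. No other gene of the type 17 list passed this test, and that list was drawn up with results of these data in view.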

How the results depend on the processing

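Of the values recomputed under the alternatives, 183 moved by less than the spread between libraries (counts by at most 1.5 times) and 30 by more. Il17ra, near no change, fell on either side of it. Without a low-count filter, 904 genes were called in CD4 T cells in place of 573, 47 in gamma-delta T cells in place of 0, 1 of the type 17 list in gamma-delta T cells in place of 0, and 50 response genes in structural cells in place of 9. With barcodes of more than 1 lineage kept, the counts were 84 in CD4 T cells, 0 of the type 17 list in place of 11 and 4 response genes, and the log2 fold changes in CD4 T cells were -1.21 for Il17rc and -1.26 for Tmem176a. DESeq2 called 2 genes in gamma-delta T cells and 25 response genes. Leaving out each library in turn gave 286 (without control replicate 1) to 484 calls in CD4 T cells, 6 (without control replicate 1) to 10 of the type 17 list, 0 to 2 calls in gamma-delta T cells (2 without control replicate 2), 0 (without p16-DTR replicate 3) to 11 response genes, and log2 fold changes of -5.05 (without p16-DTR replicate 1) to -0.26 for Il22 and -4.67 (without p16-DTR replicate 2) to -2.87 for Il17rc. For these the cause was not tested. The ratio of control to p16-DTR shares of cells with a UMI moved for Il17ra from 0.955 to 1.09 without thinning and 1.12 at 2000 UMIs, and for Il17rc from 4.13 to 10.3 and 9.78. Samples with the same replicate number did not deviate together in CD4 T cells (correlations 0.07, 0.015 and 0). In gamma-delta T cells they gave 0.069, 0.009 and 0.246, where pairs of unlike number gave -0.274 to 0.168. These few values cannot settle whether the numbers mark pairs. With the replicate block 482 genes were called in CD4 T cells, 11 of the type 17 list, 0 in gamma-delta T cells and 8 response genes, with -4.71 for Il17a. Only 4 of those 8 were among the 9 called without it: lost were Cxcl2 (edgeR adjusted p 0.103), Nfkbiz (0.0817) and Zc3h12a (0.0823) in venous endothelial and Cxcl2 (0.0921) and Nfkbiz (0.105) in general capillary cells. In CD4 T cells Serpinb1a (0.0649) and Tbx21 (0.0591) also lost their calls.

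The gates rest on single UMIs, so cells with few Cd4 or Cd3e transcripts are missed. Il22, Il17rc and p16-DTR Il17f rest on few molecules or few cells. The members were listed from the contrast they describe.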

Other observations

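Genes of the type 1 programme were higher in the p16-DTR libraries in the same CD4 T cells. All 7 listed were tested, 5 rose and none fell, beside 1.76% of all 11698 genes called higher, with a median log2 fold change of 1.07 against 0.003 over all genes (edgeR quasi-likelihood test, 3 against 3 libraries). This list and those of the next paragraphs were drawn up with results of these data in view, so their counts are not independent of them. Ccl5, a chemokine of effector T cells, stood at 327, 445 and 543 TMM-normalised CPM in the control libraries and at 2750, 3060 and 1650 in the p16-DTR libraries, a log2 fold change of 2.50 (SE 0.25, edgeR adjusted p 0.00243). Eomes, a T-box regulator of effector cells, stood at 33.1, 30.5 and 34.0 against 142, 153 and 78.1, a log2 fold change of 1.92 (SE 0.23, edgeR adjusted p 0.00377). Ifng rose by 1.07, Tbx21 by 1.00 and Cxcr3 by 0.74 on the log2 scale, and these 3 lost their calls when barcodes of more than 1 lineage were kept (edgeR adjusted p 0.0528 to 0.108). In the 6 fits that each left out a library, Ccl5 and Eomes passed in all 6, Ifng and Cxcr3 in 2 and Tbx21 in 1. NK markers in the gate summed to 3.05 to 12.4 CPM in the control and 9.27 to 32.8 in the p16-DTR libraries, and their part in the result was not tested.

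Of 4 type 2 genes tested, Ccr4, a homing receptor, fell by 1.09 on the log2 scale (edgeR adjusted p 0.00236). Of 6 regulatory genes, Il2ra, the high-affinity interleukin 2 receptor chain, fell by 1.17 (edgeR adjusted p 0.00243, and 0.0528 with barcodes of more than 1 lineage kept). Ikzf2 rose by 0.45 (edgeR adjusted p 0.0171) and passed in 3 of the 6 fits without a library, not without p16-DTR replicate 3 or control replicates 2 or 3. Of 6 naive T cell genes, Tcf7 fell by 0.43 (edgeR adjusted p 0.0278), a call kept in 2 of the 6 fits without a library and lost with barcodes of more than 1 lineage kept (0.0544) and with the stricter gate (0.0515).

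In the same gate, no gene of the myeloid (5 tested), B (2 tested), NK (2 tested), epithelial (3 tested) or fibroblast (3 tested) marker lists was called, although 3 myeloid and 2 NK markers had an unadjusted p under 0.05. Pecam1, an adhesion molecule that T cells also carry, fell by 0.69 (edgeR adjusted p 0.00243), while the endothelial markers Cdh5 and Cldn5 stood at log2 fold changes of 0.21 and 0.03 and did not pass. Egr1, an immediate early gene of the dissociation list, fell by 1.38 (edgeR adjusted p 0.00274), and Zc3h12a, the 1 response gene called of 12 tested in these cells, fell by 0.38 (edgeR adjusted p 0.0310). The Zc3h12a call was lost in all 6 fits without a library (edgeR adjusted p 0.0566 to 0.111) and with barcodes of more than 1 lineage kept (0.0888).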
